A study of Homo sapiens with 6 samples.

Results

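The proteasome subunit genes are the genes whose symbols run PSMA to PSMG followed by a number. They were taken from the array's value table wherever the platform annotation of a probe set (the group of probes that reads a transcript) named exactly 1 gene with such a symbol. By this rule 45 of the 18404 genes in the table were members, and PSMC5, PSMD7 and PSMD13 were not analysed here. Of the 45 members, 7 encode the alpha ring of the 20S core particle and 7 its constitutive beta ring. The immunoproteasome beta subunits number 3, and the tissue-restricted 20S subunits PSMA8 and PSMB11 make 2. The 19S regulatory particle has 14 members here, with 5 ATPases of its base, 3 other base subunits and ubiquitin receptors, and 6 lid subunits. Activators number 4, assembly chaperones 7 (3 for the 19S base and 4 for the 20S core), and PSMF1 is the sole inhibitor.

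RNA came from H226 cells, a human lung squamous carcinoma line, carrying a p63 shRNA that doxycycline switches on. It was read on 6 Affymetrix HuGene 1.0 ST arrays, in 3 groups of 2. Control cells had the shRNA off and received neither agent. Nutlin-3 cells had the shRNA off and received Nutlin-3, a small molecule that keeps MDM2 from binding p53, at 10 µM for 12 h. The shp63 ON cells received doxycycline at 1 µg/mL for 48 h and no Nutlin-3. All groups carried the inducible construct and grew in the same medium with serum, plated a day before treatment. No group received doxycycline without the p63 hairpin, and no control matches the 48 h of doxycycline, so hairpin, doxycycline and time cannot be told apart in shp63 ON. The gene that the hairpin targets was not analysed here, and the labels do not say that replicates were separate cultures, so p-values measure only the spread between these arrays, which may be technical.

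The 26S proteasome degrades proteins tagged with ubiquitin. A barrel of stacked alpha and beta rings, the 20S core, holds the cutting sites inside its beta rings, and the 19S particle on its ends recognises ubiquitin, removes it and unfolds the substrate. Interferon and immune cells bring in alternative catalytic subunits, PSMB8, PSMB9 and PSMB10, in place of PSMB5, PSMB6 and PSMB7, and the resulting immunoproteasome favours peptides suited to presentation on class I molecules. Core activity also depends on activators (PSME genes) that open the gate, and new cores are built with the help of dedicated chaperones (PSMG genes).

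Values below are log2 probe set intensities as deposited, given in the order replicate 1 and replicate 2 of a group. Differences are group means on that scale with limma's standard error (SE, 2 arrays a group), and a member was called, or is said to have risen or fallen, at a Benjamini-Hochberg adjusted p under 0.05 over all 18404 genes. Array medians over all probe sets lay between 6.57 and 6.70, replicates correlated across probe sets at 0.997 to 0.998, and arrays of different groups at 0.975 to 0.989. Of 15 squamous markers 12 were measured, with KRT5 (keratin 5) at a mean of 12.2 and SOX2 dim at 5.75. Their summed linear level, which the brightest weigh on most, ran from 21678 to 21929 in control, 26506 to 27273 with Nutlin-3 and 18960 to 19082 in shp63 ON. With Nutlin-3 6 of the 12 were called higher and 0 lower (50% and 0%, against 9.64% and 8.89% of all genes). In shp63 ON 2 were called higher and 5 lower (16.7% and 41.7%, against 19.7% and 16.5%). Single markers differed from control by -0.26 to 2.03 with Nutlin-3 and by -2.13 to 0.36 in shp63 ON. Since both comparisons with control use the same control arrays, they are set side by side, and neither an overlap nor a correlation between them was tested.

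**Figure D1:**
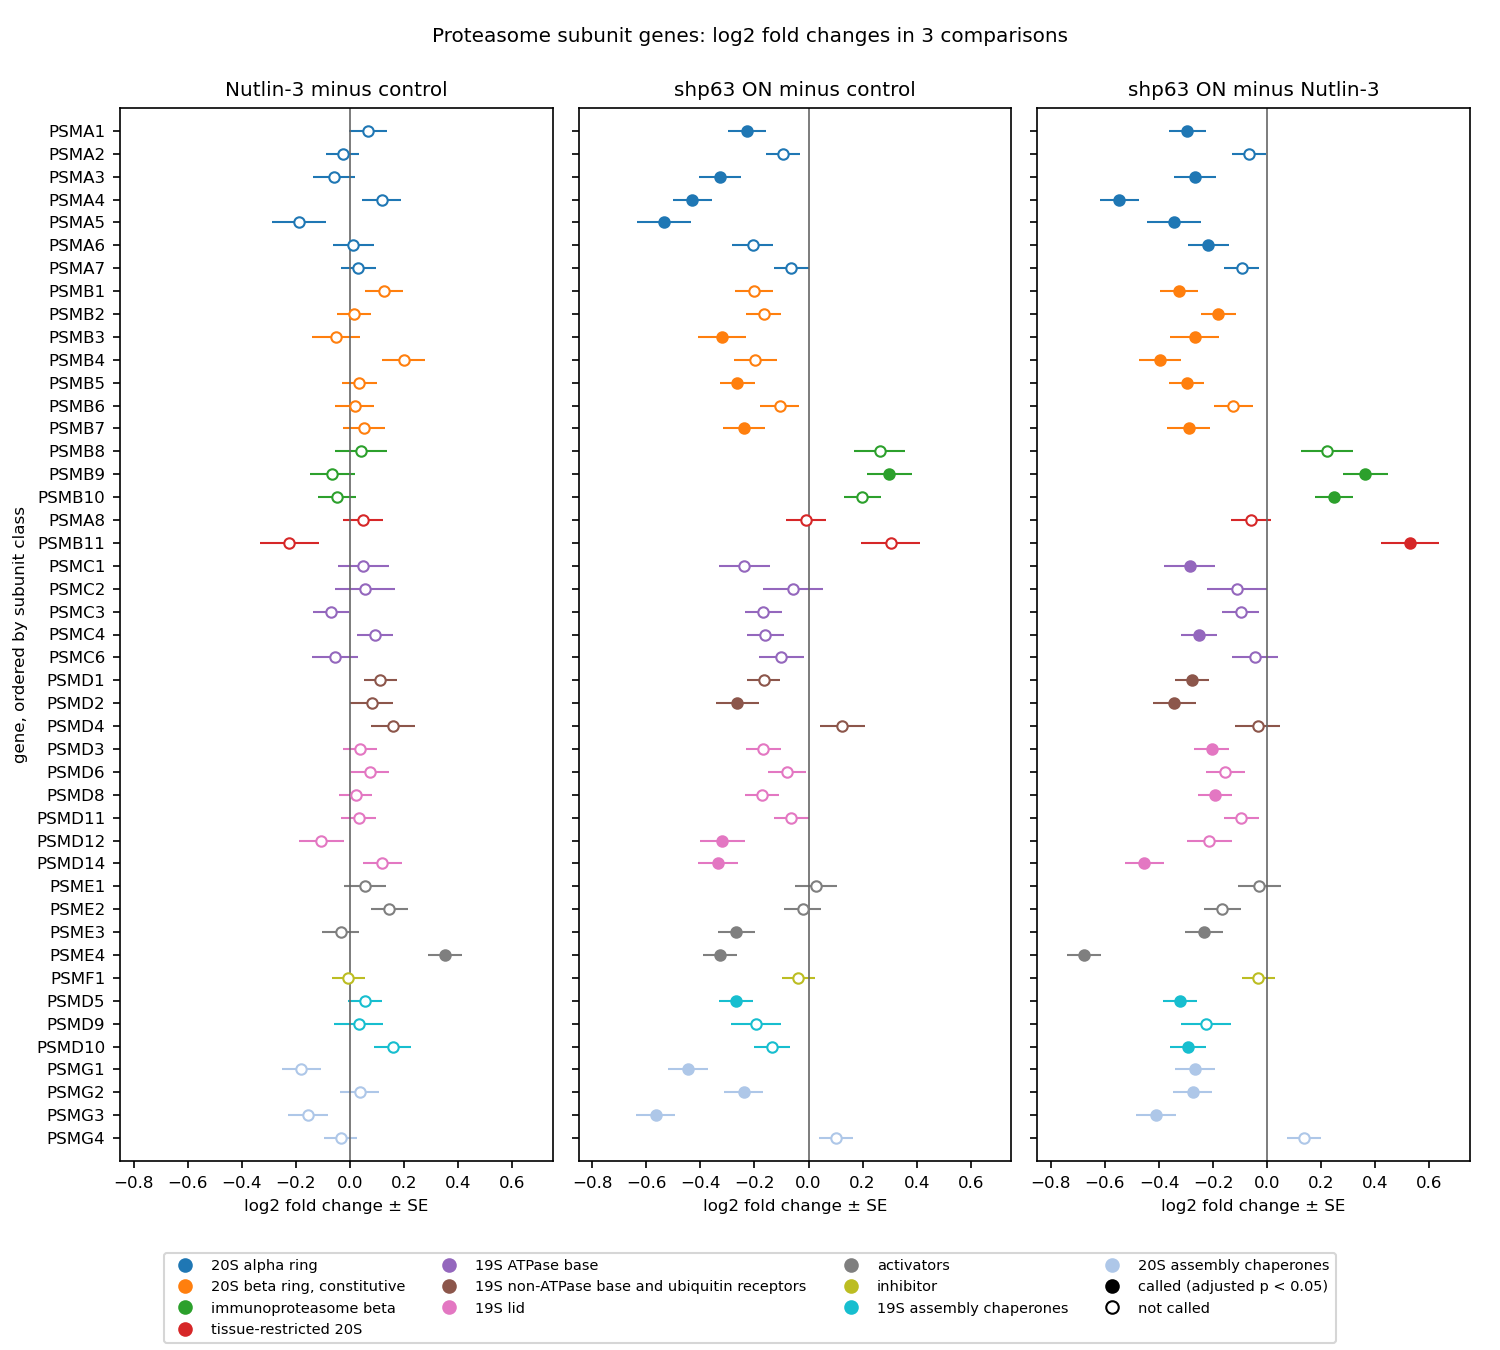
Log2 fold changes with standard errors for the 45 proteasome subunit genes coloured by subunit class, in panels for Nutlin-3 minus control, shp63 ON minus control and shp63 ON minus Nutlin-3 (2 arrays a group, filled points called at an adjusted p under 0.05). PSME4 is the 1 member called with Nutlin-3, while 16 members were called lower and PSMB9 higher in shp63 ON against control.

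With Nutlin-3, the proteasome genes stayed near their control levels apart from 1 activator. PSME4, which encodes PA200, a nuclear activator that caps the 20S core in place of the 19S particle, rose 1.27-fold. No other member was called and none fell, with 1 of 45 called against 18.5% of all genes (9.64% higher, 8.89% lower). After median centring of the arrays the split over all genes was 2175 higher and 1236 lower, and the 1 member call stood. The median change over the members was 0.03, beside -0.00 over all genes. An unmoderated analysis of variance at an unadjusted p under 0.05 gave 2 members higher and 0 lower (4.44% and 0%), beside 14.1% and 13% of all genes. By limma, the members not called had differences between -0.22 and 0.20.

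PSME4 stood at 10.24 and 10.23 in control, 10.57 and 10.60 with Nutlin-3, and 9.87 and 9.95 in shp63 ON. The groups did not overlap: the Nutlin-3 arrays were the highest, the control arrays lay between, and the shp63 ON arrays were the lowest. The Nutlin-3 difference was 0.35 ± 0.06 (SE), with a limma adjusted p of 0.00859. The call was lost when either control array was left out, with differences of 0.36 and 0.35 and adjusted p of 0.06 and 0.0587, while PSME4 was called in each of the fits that rescaled the arrays.

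The constitutive subunits of the 20S core and 19S particle, 28 genes in all, gave Nutlin-3 differences between -0.19 and 0.20, with 0 called by limma. The widest were PSMB4, the beta7 subunit, at 0.20 ± 0.08 (adjusted p = 0.125) and the alpha ring gene PSMA5 at -0.19 ± 0.10 (adjusted p = 0.241). The ATPases that unfold substrates spanned -0.07 to 0.09, and the lid spanned -0.10 to 0.12. The sign of these small shifts depended on scaling, since the median over the 28 was 0.04 as deposited and -0.01 after quantile normalization or cyclic loess. Over all 45 members, the arrays of the 2 groups overlapped for 26. They lay fully higher with Nutlin-3 for 15 (33.3%) and fully lower for 4 (8.89%), beside 30.2% and 30.3% of all genes.

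In shp63 ON, 10 of the 28 constitutive 20S and 19S subunit genes fell and 1 immunoproteasome subunit, PSMB9, rose. By limma, 16 of the 45 members fell (35.6%, against 16.5% of all genes) and 1 rose (2.22%, against 19.7%), and 36.2% of all genes were called in either direction. The members' median change was -0.17, where that of all genes was 0.04. The falls were 7 of 14 in the constitutive core (median -0.22), 3 of 14 in the 19S particle (median -0.17), 4 of 7 among assembly chaperones (median -0.24) and 2 of 4 among activators. Fold decreases were modest, and the largest, PSMG3, was 1.48-fold.

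Arrays also shifted with a gene's level in shp63 ON, and most members are bright. Among the 3810 genes with a mean level of 9 to 12, 26.9% were called lower and 14.3% higher with a median of -0.06, while 15 of the 34 members in that range were called lower (44.1%) with a median of -0.20. The 19S particle, with 3 of 14 called lower (21.4%), was not above that share. Quantile normalization and cyclic loess, which remove such a trend between arrays, each left 10 members called lower, or 22.2%, beside 14.9% and 16.3% of all genes.

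**Figure D2:**
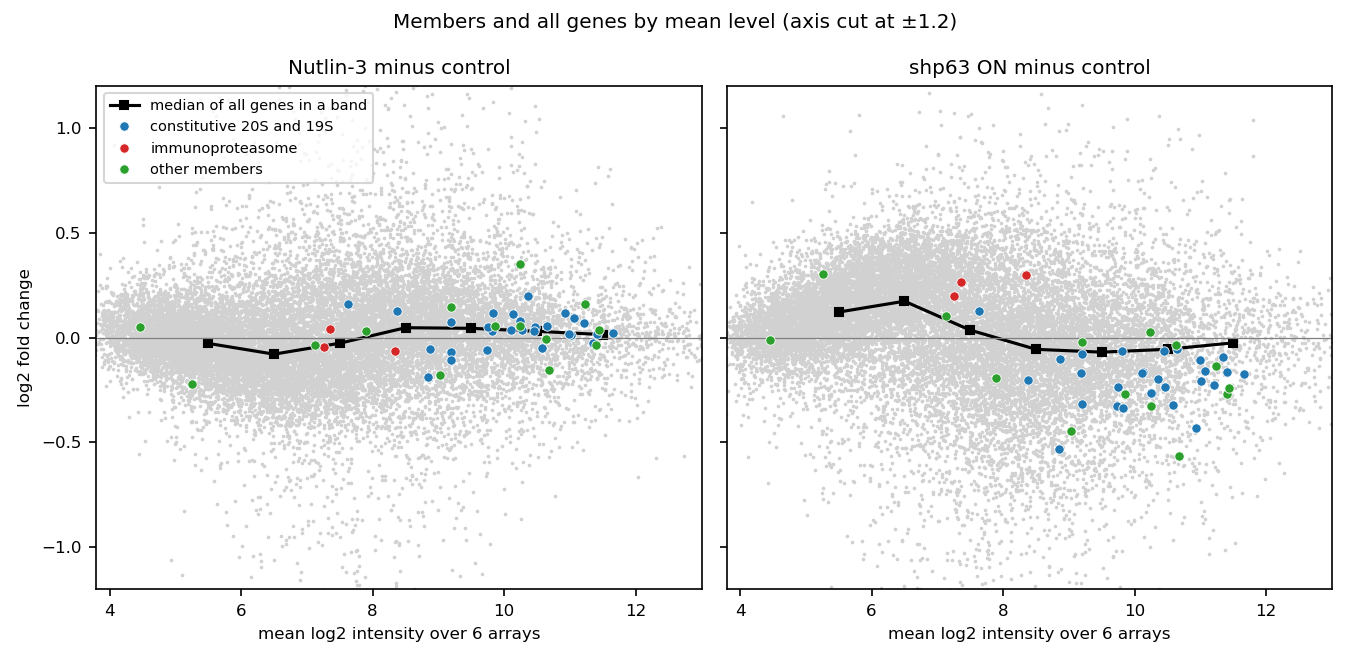
Log2 fold change of Nutlin-3 (left) and shp63 ON (right) against control by mean log2 intensity over the 6 arrays, with all genes in grey, the members in colour, black squares for the median of all genes in bands of 1 log2 unit, and the vertical axis limited to 1.2 either side of 0. For shp63 ON at levels of 9 to 12 the median of all genes was -0.06 and that of the 34 members there was -0.20.

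The number of falls also rested on single arrays. Leaving out control replicate 1 or 2 gave 6 and 5 members called lower (13.3% and 11.1%), close to the 11.1% and 9.86% of all genes in the same fits. Without shp63 ON replicate 1 or 2 there were 10 and 9 (22.2% and 20%, beside 11.7% and 12.5%), and without either Nutlin-3 array 15. Of the 17 calls, 5 were made in each of the 6 fits that left out an array: PSMA4, PSMA5, PSME4, PSMG1 and PSMG3.

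The alpha ring forms the outer gate of the core and contacts the regulators. Of its 7 genes, 4 fell in shp63 ON, and all 7 differences were below 0 (-0.53 to -0.06). PSMA5 was 9.03 and 9.14 in control, 9.03 and 8.77 with Nutlin-3, and 8.62 and 8.49 in shp63 ON. Both shp63 ON arrays were below the other 4, a decrease of 1.45-fold against control (log2 difference -0.53 ± 0.10, adjusted p = 0.00612). PSMA4 was 11.03 and 11.04 in control, 11.22 and 11.08 with Nutlin-3, and 10.65 and 10.56 in shp63 ON. Here too the shp63 ON arrays were the lowest without overlap, by 1.35-fold (-0.43 ± 0.07, adjusted p = 0.00393), and the Nutlin-3 arrays were the highest. PSMA3 changed by -0.33 (adjusted p = 0.0154) and PSMA1 by -0.23 (adjusted p = 0.0382). PSMA6 (-0.21), PSMA2 (-0.09) and PSMA7 (-0.06) were not called.

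Among the constitutive beta subunits 3 of 7 fell, and again all 7 differences were below 0, from -0.32 to -0.11. The catalytic subunits are PSMB6 (beta1, caspase-like), PSMB7 (beta2, trypsin-like) and PSMB5 (beta5, chymotrypsin-like). PSMB5 was 10.33 and 10.36 in control, 10.41 and 10.35 with Nutlin-3, and 10.04 and 10.12 in shp63 ON, with the last pair below all others. Its difference from control was -0.26 ± 0.06 (adjusted p = 0.0167), and the call was lost without control replicate 1, control replicate 2 or shp63 ON replicate 1 (adjusted p of 0.0655, 0.0912 and 0.0873). PSMB7 was 10.56 and 10.49 in control, 10.62 and 10.53 with Nutlin-3, and 10.37 and 10.20 in shp63 ON. The shp63 ON pair was again the lowest, but at -0.24 ± 0.08 with an adjusted p of 0.0499 the call sat at the threshold and was lost when any array but shp63 ON replicate 1 was left out (adjusted p of 0.0534 to 0.23).

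PSMB6 was 10.98 and 11.06 in control, 11.10 and 10.98 with Nutlin-3, and 10.95 and 10.88 in shp63 ON. The shp63 ON arrays lay just under the rest, and the difference of -0.11 ± 0.07 was not called (adjusted p = 0.281). Of the beta subunits without catalytic activity, PSMB3 changed by -0.32 ± 0.09 (adjusted p = 0.0281), a call lost without control replicate 1, control replicate 2 or shp63 ON replicate 2 (adjusted p of 0.152, 0.0553 and 0.139). PSMB1 and PSMB4 were both at -0.20 and PSMB2 at -0.17, none of them called.

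The 3 immunoproteasome subunits all gave differences above 0 in shp63 ON, and 1 of them rose. PSMB9, the alternative beta1 subunit, was 8.17 and 8.37 in control, 8.25 and 8.16 with Nutlin-3, and 8.60 and 8.53 in shp63 ON. Both shp63 ON arrays were above the other 4, a rise of 1.23-fold over control (0.30 ± 0.08, adjusted p = 0.0268), whereas Nutlin-3 differed from control by -0.07 ± 0.08 (adjusted p = 0.635). The rise was not called without control replicate 1 (0.20, adjusted p = 0.151), shp63 ON replicate 1 (0.26, adjusted p = 0.124) or shp63 ON replicate 2 (0.33, adjusted p = 0.0655).

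PSMB10, the alternative beta2 subunit, was 7.15 and 7.27 in control, 7.12 and 7.19 with Nutlin-3, and 7.42 and 7.40 in shp63 ON, where both arrays were the highest. Its difference of 0.20 ± 0.07 missed the threshold (adjusted p = 0.0572) and was 0.12 after cyclic loess. PSMB8, the alternative beta5 subunit, was 7.23 and 7.27 in control, 7.33 and 7.26 with Nutlin-3, and 7.65 and 7.37 in shp63 ON. The shp63 ON replicates were above the others but far apart, and the difference of 0.26 ± 0.10 was not called (adjusted p = 0.0663), although it was 0.40 and called without shp63 ON replicate 2 (adjusted p = 0.0173). At the levels of these genes the background of rises was not small: 24.6% of all genes with a mean of 7 to 8, and 17% of those with 8 to 9, were called higher.

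**Figure D3:**
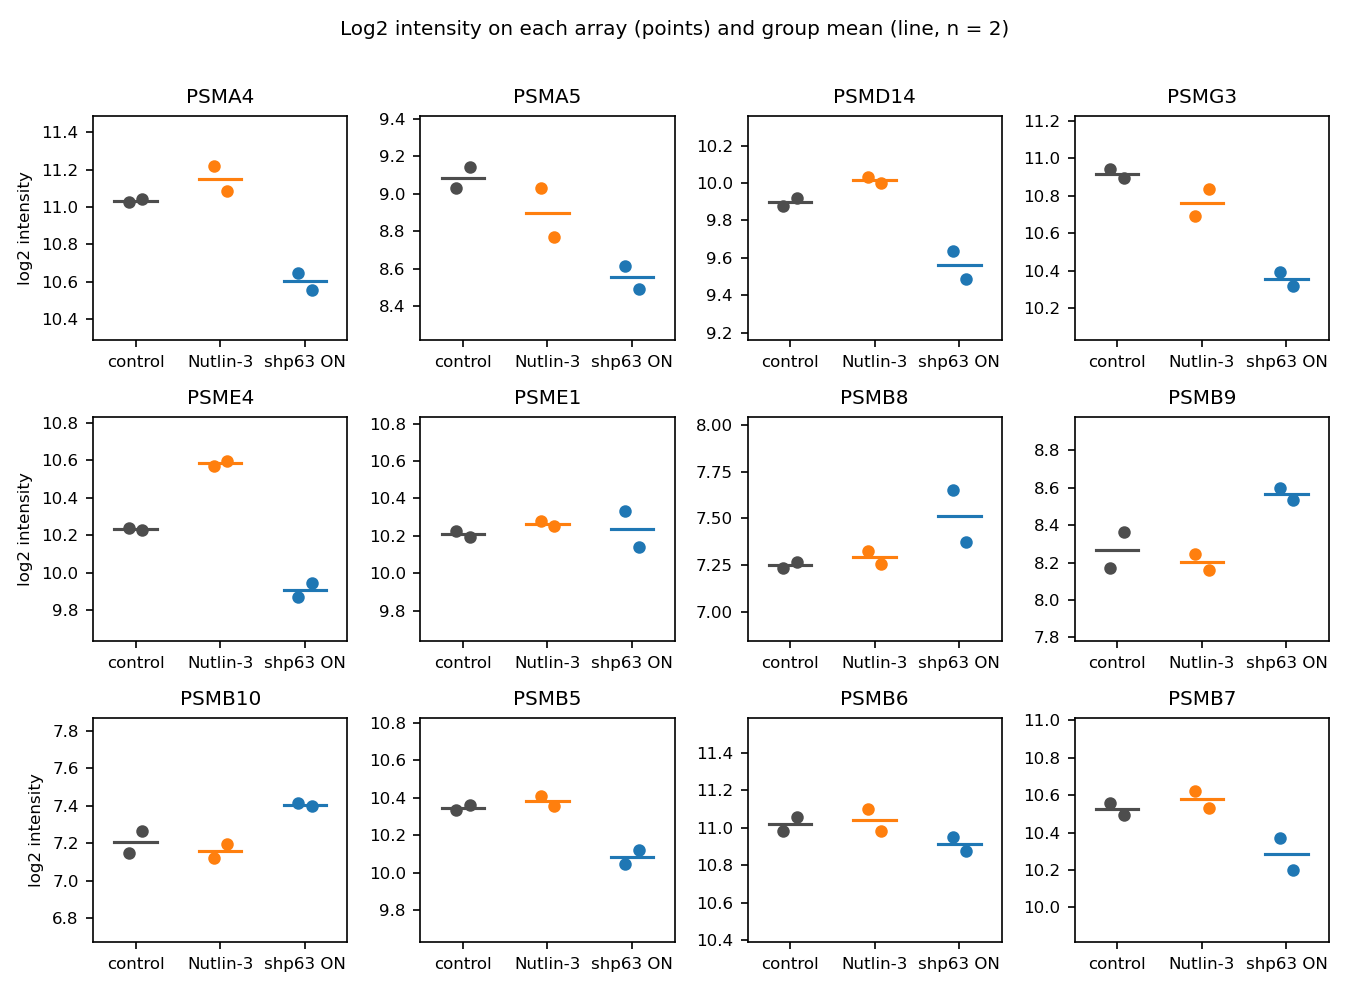
Log2 intensity on each of the 6 arrays for 12 proteasome genes, with points for arrays and lines for group means, each panel spanning the same range of 1.2 log2 units. PSMB8, PSMB9 and PSMB10 have their highest points in shp63 ON, where PSMA4, PSMA5, PSMD14, PSMG3 and PSME4 have their lowest.

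The difference between each alternative subunit and its constitutive counterpart was taken on every array. Probe sets bind with different strength, so the differences have no meaning as a ratio of the transcripts, and only their change between groups is read. The genes of a pair also differ in level, and arrays shifted with level in shp63 ON. The median of all genes there was 0.04 at levels of 7 to 8, and -0.06 at both 8 to 9 and 10 to 11. PSMB9 minus PSMB6 was -2.81 and -2.69 in control, -2.85 and -2.82 with Nutlin-3, and -2.35 and -2.34 in shp63 ON, a change of 0.41 in shp63 ON and of -0.08 with Nutlin-3. PSMB10 minus PSMB7 was -3.41 and -3.23 in control, -3.50 and -3.34 with Nutlin-3, and -2.96 and -2.81 in shp63 ON, changes of 0.44 and -0.10 in the same order.

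For PSMB8 minus PSMB5 the values were -3.10 and -3.09 in control, -3.08 and -3.10 with Nutlin-3, and -2.39 and -2.75 in shp63 ON, with changes of 0.53 and 0.01. In all 3 pairs both shp63 ON arrays lay above the 4 others. After cyclic loess the shp63 ON changes were 0.39 for PSMB9 minus PSMB6, 0.29 for PSMB10 minus PSMB7 and 0.39 for PSMB8 minus PSMB5. With 2 arrays against 2 an exact two-sided permutation test cannot give a p below 0.333, so none was made.

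**Figure D4:**
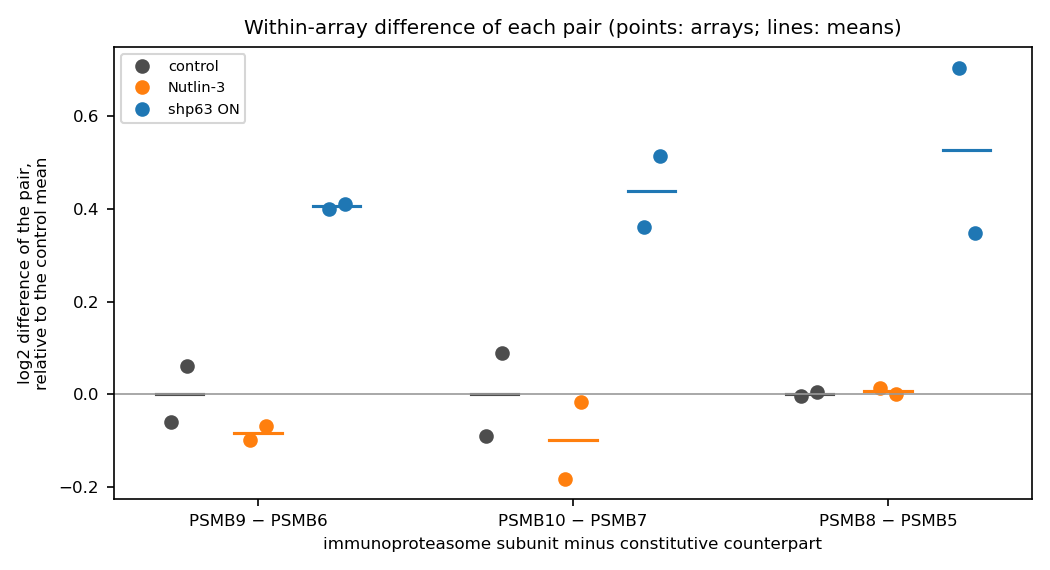
Log2 difference between each immunoproteasome subunit and its constitutive counterpart on each array (points) and its group mean (lines), drawn relative to the control mean of the pair. The shp63 ON points are the highest in every pair, by 0.41, 0.44 and 0.53 on average over control for PSMB9 minus PSMB6, PSMB10 minus PSMB7 and PSMB8 minus PSMB5.

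Since leukocytes hold much immunoproteasome, a list of their markers was read on the same arrays. Of 13 markers 12 were measured, and their summed linear level was 1435 and 1444 in control, 1712 and 1680 with Nutlin-3, and 2009 and 2022 in shp63 ON. In shp63 ON 5 of the 12 were called higher (41.7%, against 19.7% of all genes and 34.7% of those at levels of 6 to 7), including CD68 (0.75) and CD14 (0.62), and 0 lower. PTPRC, the pan-leukocyte marker CD45, read 4.24 to 4.48, under the 4.91 that marks the dimmest 10% of genes. Mesothelial markers were called higher for 3 of 7 and lower for 0, with a summed level of 1155 and 1204 in control and 1440 and 1389 in shp63 ON, and fibroblast markers for 3 and 1 of 8, with sums of 1071 and 1130 against 1081 and 1083. The part of these transcripts in the immunoproteasome result was not tested.

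The start regions of these genes show which of them carry the letters of elements known from proteasome and interferon regulation. RefSeq windows (GRCh38.p14, 250 bases before to 50 after a start) matched 39 of the members with 47 windows, 7 genes having several and 6 none. The motifs searched on both strands were TGACNNNGC, the core bound by NFE2L1 and NFE2L2, CCAAT, bound by NF-Y, and GAAA followed after any 2 bases by GAAA, bound by interferon regulatory factors (the IRF motif). Below are the first 260 bases of 5 windows, 5′ to 3′ on the gene's strand, ending 10 bases past the start, with motif matches in capitals. The immunoproteasome genes are shown as planned. PSME4 is shown because it was called in opposite directions in the comparisons with control, although the plan named members called in the same direction. TAP1, a peptide transporter gene and no member, is shown because its start region abuts that of PSMB9. The PSME4 and TAP1 windows were chosen after their values were seen.
PSMB9: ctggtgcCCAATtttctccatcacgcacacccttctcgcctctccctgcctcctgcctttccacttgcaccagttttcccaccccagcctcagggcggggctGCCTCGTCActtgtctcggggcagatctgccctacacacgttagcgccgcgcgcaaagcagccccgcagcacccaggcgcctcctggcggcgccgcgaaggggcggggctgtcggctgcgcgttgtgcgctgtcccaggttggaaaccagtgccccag
TAP1: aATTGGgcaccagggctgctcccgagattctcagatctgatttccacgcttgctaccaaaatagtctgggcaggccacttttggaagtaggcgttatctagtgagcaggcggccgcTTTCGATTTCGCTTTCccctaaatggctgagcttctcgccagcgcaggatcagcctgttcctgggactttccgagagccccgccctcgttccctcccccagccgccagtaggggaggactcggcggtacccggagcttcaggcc
PSMB8: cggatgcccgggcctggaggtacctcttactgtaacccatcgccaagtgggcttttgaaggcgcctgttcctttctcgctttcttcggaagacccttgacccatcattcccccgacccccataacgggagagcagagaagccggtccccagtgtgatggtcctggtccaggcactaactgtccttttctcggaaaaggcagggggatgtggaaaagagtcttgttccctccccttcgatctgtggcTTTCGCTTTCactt
PSMB10: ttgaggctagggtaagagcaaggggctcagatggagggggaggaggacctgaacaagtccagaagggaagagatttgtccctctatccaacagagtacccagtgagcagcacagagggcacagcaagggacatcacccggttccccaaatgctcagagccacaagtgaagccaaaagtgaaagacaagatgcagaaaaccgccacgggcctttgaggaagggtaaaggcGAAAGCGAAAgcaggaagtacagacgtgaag
PSME4: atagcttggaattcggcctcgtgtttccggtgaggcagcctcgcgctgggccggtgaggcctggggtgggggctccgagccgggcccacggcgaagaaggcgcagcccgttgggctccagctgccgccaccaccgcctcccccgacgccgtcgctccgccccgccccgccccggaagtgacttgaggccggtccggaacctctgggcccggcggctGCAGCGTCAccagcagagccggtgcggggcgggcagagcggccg
The PSMB9 window, on the plus strand at chr6:32853942-32854201, holds CCAAT and, on the reverse strand, TGACNNNGC. Its first 13 bases are shared with the window of TAP1 (minus strand, chr6:32853695-32853954), whose CCAAT match is the same letters read on the other strand and which also holds a pair of overlapping IRF motif matches on its reverse strand. The PSMB8 window (minus strand, chr6:32844038-32844297, the second of 2) holds, across the start, the IRF motif on the reverse strand. The other PSMB8 window, not printed, held no match to any of the motifs. The IRF motif also lies in the PSMB10 window (minus strand, chr16:67936841-67937100), and PSME4 (minus strand, chr2:53970984-53971243) has TGACNNNGC on the reverse strand.

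Over the member windows, TGACNNNGC occurred in 14 of 47 (29.8%, against 13.3% of all 35116 windows) and CCAAT in 18 (38.3%, against 34.6%). The IRF motif occurred in 7 (14.9%, against 3.57%). Some windows of 1 gene overlap, and a match is a run of letters, not a binding site. The IRF motif was not particular to the alternative subunits: besides PSMB8 and PSMB10 it lay in windows of PSMA4, PSMB4, PSME1, PSME2 and PSMG4, of which PSMA4 fell in shp63 ON and the other 4 were not called. TAP1 rose with Nutlin-3 by 0.59 ± 0.07 (adjusted p = 0.00173), where PSMB9 differed by -0.07 ± 0.08 (adjusted p = 0.635). In shp63 ON the difference of TAP1 was 0.18 ± 0.07 (adjusted p = 0.0924) and that of PSMB9 0.30 ± 0.08 (adjusted p = 0.0268), and the difference between the genes was not tested. TAP1 read 10.85 and 10.93 in control, 11.54 and 11.42 with Nutlin-3, and 11.12 and 11.02 in shp63 ON, so both treated groups were above control without overlap.

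In the 19S particle of shp63 ON cells, 13 of 14 differences were below 0 and 3 were called. None of the 5 ATPases was called by limma (adjusted p of 0.0843 to 0.72), and they ran from -0.24 for PSMC1 to -0.06 for PSMC2. The called lid genes were PSMD14, the metalloprotease that cuts ubiquitin chains from substrates, and PSMD12, a scaffold subunit at -0.32 ± 0.08 (adjusted p = 0.0214). PSMD14 was 9.88 and 9.92 in control, 10.03 and 10.00 with Nutlin-3, and 9.64 and 9.49 in shp63 ON. Its groups were fully apart in the order Nutlin-3, control, shp63 ON, the last 1.26-fold below control (-0.33 ± 0.07, adjusted p = 0.0107), a call lost without control replicate 2 or shp63 ON replicate 2 (adjusted p of 0.0678 and 0.0555).

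PSMD2, a base scaffold that binds ubiquitin-like domains, changed by -0.26 ± 0.08 (adjusted p = 0.0366) and PSMD1, the other scaffold, by -0.17, which was not called. PSMD4, a ubiquitin receptor, was the exception in sign at 0.12 (adjusted p = 0.276). The lid genes PSMD3 and PSMD8 were both at -0.17, PSMD6 at -0.08 and PSMD11 at -0.06, none of them called. PSMC6 was read by a pair of probe sets, and the brighter, used here, gave -0.10 (adjusted p = 0.39), while the other gave -0.35 (adjusted p = 0.0107).

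Among the assembly chaperones 4 of 7 fell, and PSMG3 had the largest fall of the 45 members. PSMG3, which with PSMG4 helps build the alpha ring, was 10.94 and 10.90 in control, 10.69 and 10.83 with Nutlin-3, and 10.39 and 10.32 in shp63 ON. Its shp63 ON arrays were far below the rest, 1.48-fold under control (-0.57 ± 0.07, adjusted p = 0.00125), and the Nutlin-3 arrays lay between (-0.15, adjusted p = 0.187). PSMG1, the partner of PSMG2, was 9.24 and 9.23 in control, 9.12 and 8.99 with Nutlin-3, and 8.84 and 8.74 in shp63 ON. This gene had the same order without overlap, 1.36-fold lower in shp63 ON (-0.45 ± 0.07, adjusted p = 0.00346) and not called with Nutlin-3 (-0.18, adjusted p = 0.134). PSMG2 fell by 0.24 ± 0.07 on the log2 scale (adjusted p = 0.0365), a call lost without any 1 of the control and shp63 ON arrays (adjusted p of 0.0526 to 0.166). PSMG4 did not follow its partner, at 0.10 ± 0.06 (adjusted p = 0.246). Of the 19S base chaperones, PSMD5 changed by -0.27 (adjusted p = 0.0146), while PSMD9 at -0.19 and PSMD10, also called gankyrin, at -0.13 were not called.

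Of the 4 activators, 2 fell in shp63 ON. PSME4, at -0.33 ± 0.06 (adjusted p = 0.00686), fell 1.25-fold in shp63 ON, the opposite of its Nutlin-3 change, and was the only 1 of the 45 called in both comparisons with control. PSME3, the nuclear activator PA28 gamma, was 11.49 and 11.51 in control, 11.53 and 11.40 with Nutlin-3, and 11.25 and 11.21 in shp63 ON. The shp63 ON arrays were the lowest (-0.27 ± 0.07, adjusted p = 0.0206), and the call was lost without any 1 of the control and shp63 ON arrays (adjusted p of 0.0603 to 0.1).

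PSME1 and PSME2 encode the interferon-inducible PA28 alpha and beta. PSME1 was 10.22 and 10.19 in control, 10.28 and 10.25 with Nutlin-3, and 10.33 and 10.14 in shp63 ON. The shp63 ON replicates straddled all other arrays, and neither treatment was called (0.06 and 0.03, adjusted p of 0.668 and 0.81). PSME2 was 9.13 and 9.18 in control, 9.36 and 9.24 with Nutlin-3, and 9.12 and 9.14 in shp63 ON, high with Nutlin-3 without being called (0.15 ± 0.07, adjusted p = 0.187) and overlapping control in shp63 ON (-0.02, adjusted p = 0.836). The inhibitor PSMF1 was 10.62 and 10.67 in control, 10.65 and 10.63 with Nutlin-3, and 10.61 and 10.61 in shp63 ON. Its shp63 ON arrays were just under the other 4 and its Nutlin-3 arrays overlapped control, with changes of -0.01 with Nutlin-3 and -0.04 in shp63 ON, neither of them called (adjusted p of 0.966 and 0.659).

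The tissue-restricted subunits were dim. PSMA8, an alpha subunit of testis, read 4.36 to 4.51 on all arrays, with both changes from control at 0.05 or less in size. PSMB11, the thymic beta5 subunit, was 5.21 and 5.25 in control, 5.09 and 4.93 with Nutlin-3, and 5.69 and 5.38 in shp63 ON. Its shp63 ON arrays were the highest and its Nutlin-3 arrays the lowest, with neither difference from control called (0.30 ± 0.11, adjusted p = 0.063, and -0.22 ± 0.11, adjusted p = 0.199). Genes as dim as this rose often, with 20.4% of those at 5 to 6 called higher in shp63 ON.

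Set directly against Nutlin-3, shp63 ON had most of the core subunits and chaperones lower and 3 beta subunits higher. By limma 25 of 45 members were lower (55.6%, against 24% of all genes) and 3 higher (6.67%, against 27.5%), with 51.5% of all genes called in either direction. The falls covered 11 of the 14 constitutive core genes (median -0.28) and 7 of the 14 of the 19S particle (median -0.20), with 5 of 7 chaperones and both PSME3 and PSME4. The rises were PSMB11, PSMB9 and PSMB10, and the members' median was -0.22 beside 0.03 over all genes. Rises were common at the levels of these 3 genes. Of all genes, 32.7% at levels of 5 to 6 (PSMB11), 19.8% at 8 to 9 (PSMB9) and 34.2% at 7 to 8 (PSMB10) were called higher.

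PSME4 had the largest difference, 1.6-fold lower than with Nutlin-3 (-0.68 ± 0.06, adjusted p = 0.000156), its changes from control having opposite signs. PSMA4 was 1.46-fold lower (-0.55 ± 0.07, adjusted p = 0.000717), PSMD14 1.37-fold lower (-0.45 ± 0.07, adjusted p = 0.00161) and PSMG3 lower by 0.41 on the log2 scale (adjusted p = 0.00263). PSMB11 was 1.44-fold higher (0.53 ± 0.11, adjusted p = 0.00521), PSMB9 1.29-fold higher (0.36 ± 0.08, adjusted p = 0.00813) and PSMB10 higher by 0.25 ± 0.07 (adjusted p = 0.0194). PSMB8 at 0.22 was not called (adjusted p = 0.0879), and PSMB10's call was lost without Nutlin-3 replicate 1, shp63 ON replicate 1 or shp63 ON replicate 2 (adjusted p of 0.0862, 0.0794 and 0.0602).

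Several genes called here were not called against control. PSMB4 was lower by 0.40 (adjusted p = 0.00447), PSMB1 by 0.33 (adjusted p = 0.00637), PSMD10 by 0.29 (adjusted p = 0.00873) and PSMD1 by 0.28 (adjusted p = 0.00719). Among ATPases PSMC1 (-0.29) and PSMC4 (-0.25) were called, and PSMC2 (-0.11), PSMC3 (-0.10) and PSMC6 (-0.05) were not. The other, dimmer probe set of PSMC6 gave -0.47 in this comparison. Arrays were fully apart for 35 members lower (77.8%) and 5 higher (11.1%), where all genes gave 35.7% and 41.1%. Against control the corresponding numbers were 33 (73.3%) and 5 (11.1%), with 30.4% and 41.3% of all genes.

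Here 23 of 34 members at a level of 9 to 12 were called lower (67.6%) against 38.8% of all genes at that level, with medians of -0.26 and -0.11. After quantile normalization 10 members were lower and 3 higher, and after cyclic loess 12 were lower, so that the members' share of falls (22.2% and 26.7%) was close to that of all genes (21.2% and 23.5%). Leaving out Nutlin-3 replicate 1 or shp63 ON replicate 2 left 13 lower in each case (28.9%, beside 19.8% of all genes). Calls made in all 6 fits that left out an array were 12 of the 28, namely PSMA4, PSMB1, PSMB4, PSMB5, PSMB9, PSMB11, PSMD1, PSMD5, PSMD10, PSMD14, PSME4 and PSMG3.

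Genes that work beside the PSM genes were read from 7 lists with 69 measured genes. In shp63 ON 20 of the 69 fell (29%, against 16.5% of all genes) and 5 rose (7.25%, against 19.7%). Many of these genes are bright, and of all genes at levels of 9 to 12, 26.9% were called lower and 14.3% higher. The share of falls in the lists was thus near that of genes at such levels. Calls in either direction went from 25 to 21 after quantile normalization and to 18 after cyclic loess. With Nutlin-3 8 rose and 4 fell (11.6% and 5.8%), close to the 9.64% and 8.89% of all genes. The 25 calls in shp63 ON dropped to 8, 10, 13 and 14 without control replicate 1, control replicate 2, shp63 ON replicate 1 and shp63 ON replicate 2, and the 12 with Nutlin-3 to 2, 5 and 6 without control replicate 1, control replicate 2 and Nutlin-3 replicate 1. The list nearest the members, subunits with other names, maturation factors and proteins bound to the particle, had 8 of 13 lower and 0 higher in shp63 ON (median -0.23), and 1 higher and 1 lower with Nutlin-3.

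ADRM1, a ubiquitin receptor of the 19S base, was 10.62 and 10.65 in control, 11.07 and 11.07 with Nutlin-3, and 10.47 and 10.32 in shp63 ON. Like PSME4 it was highest with Nutlin-3 and lowest in shp63 ON without overlap, at 0.43 ± 0.07 (adjusted p = 0.00617) and -0.24 ± 0.07 (adjusted p = 0.0344). UCHL5, the deubiquitinase that ADRM1 recruits, fell by 0.28 on the log2 scale with Nutlin-3 (adjusted p = 0.0471) and by 0.67 in shp63 ON (adjusted p = 0.000808). PITHD1 (-0.39), SEM1, a small lid subunit (-0.34), and PAAF1, a 19S chaperone (-0.34), also fell in shp63 ON, whereas POMP, the maturation factor of the core, was at -0.12 and not called (adjusted p = 0.152).

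Among 9 regulators of proteasome genes, NFE2L1, the factor that raises subunit transcription when proteasomes are inhibited, was not called in either comparison with control (0.13 in shp63 ON and -0.07 with Nutlin-3). In shp63 ON NFYA (-0.31) and NFE2L2 (-0.21) fell and FOXO4 (0.30) rose, and with Nutlin-3 MAFF alone rose (0.40). Of 6 ubiquitin genes and enzymes, 2 fell with Nutlin-3 and 3 in shp63 ON: UBE2S (-0.44 and -0.81) and UBE2C (-0.32 and -0.65), which serve the anaphase-promoting complex, and in shp63 ON UBA6 (-0.23). Of 12 shuttle and p97 genes, 0 were called with Nutlin-3 by limma and 2 in shp63 ON, MIDN rising (0.44) and UBQLN4 falling (-0.22).

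The 9 measured interferon and class I partners of the immunoproteasome divided between the treatments. In shp63 ON NLRC5, the activator of class I genes (0.65), B2M, the class I light chain (0.61), and TAPBP, the peptide-loading factor tapasin (0.25), rose, while ERAP2, a peptide-trimming enzyme, fell (-0.25). With Nutlin-3 ERAP2 (0.91), TAP1 (0.59) and IRF1 (0.40) rose and none fell. Of 10 cytosolic peptidases that act on proteasome products, LTA4H rose with Nutlin-3 (0.49), and THOP1 (-0.30) and TPP2 (-0.28) fell in shp63 ON. Of 10 chaperones of protein quality control, HSP90AB1 (-0.34), HSPH1 (-0.27) and DNAJA1 (-0.26) fell in shp63 ON, and DNAJA1 (0.32) and BAG3 (0.28) rose and HSPB1 (-0.23) fell with Nutlin-3.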

How the data were processed

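The authors hybridised total RNA to 6 Affymetrix arrays and deposited log2 probe set intensities; the scale was read from the values, Partek (version not given) is named per the submitters' processing notes, and for background correction, normalization and probe summary the method was not given in the sources used here. Of 32321 probe sets, the 19158 naming 1 gene gave 18404 genes, and the brightest on average stood for a gene. Pseudogenes of 20 members may share probes.

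With limma 3.58.1 in R 4.3.3, a model with the 3 group means was fitted across the 6 arrays (3 residual degrees of freedom, no filter, no replicate block), with p-values adjusted by Benjamini-Hochberg over all genes. The script was tested on simulated data. Members, classes and lists were chosen with earlier results of these data known. Array values were given for immunoproteasome genes, their counterparts, PSME genes, PSMF1 and the 4 largest called rises and falls a comparison; lists name up to 4 called genes.

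Alternatives were 3 scalings, 2 level filters, probe set averaging, eBayes with trend or robust, an unmoderated analysis of variance (adjusted or not), the 2 groups alone, a replicate block and leaving out each array. The second probe set of PSMC6 and the level bands were added after seeing the data. No protein sequences were used here. Arrays give no depth, and their number limits the precision.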

Additional observations from a re-analysis of the deposited data

How the results depend on the processing

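Of the 28 constitutive subunits, 27 were below 0 in shp63 ON against control as deposited, and 25 after quantile normalization or cyclic loess. Leaving out a control or shp63 ON array gave 26 or 27. Alternatives that change only the prior, the test, the level filter or the third group leave these differences as they are, so they could not move this count. Against Nutlin-3, 28 were below 0 as deposited and 23 after quantile normalization or cyclic loess. Shp63 ON calls made under all 18 alternatives were PSMA4, PSME4, PSMG1 and PSMG3 against control, and PSMA4, PSMB5, PSMD5, PSMD10, PSMD14, PSME4 and PSMG3 against Nutlin-3.

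Members called lower in shp63 ON against control numbered 16, with 10 after quantile normalization, 10 after cyclic loess, 26 among genes at or above the median level, 27 with a trended prior, 6 by adjusted analysis of variance, and 5 to 15 leaving out arrays. Members called higher numbered 1 (2.22%, beside 19.7% of all genes). The filters at the 25th percentile and the median level gave 3 and 2 (6.98% and 4.88%, beside 25.2% and 20.8%). Adjusted and unadjusted analysis of variance gave 0 and 2 (0% and 4.44%, beside 7.27% and 19.7%). The replicate block gave 2 (4.44%, beside 19.5%). Against Nutlin-3, 25 were lower, with 10 after quantile normalization, 12 after cyclic loess, 13 by adjusted analysis of variance and 13 to 22 leaving out arrays, the rescaled shares (22.2% and 26.7%) being close to those of all genes (21.2% and 23.5%), and 3 were higher, with 1 at or above the median level, 0 by adjusted analysis of variance and 2 to 3 leaving out arrays. With Nutlin-3, 1 was higher (2.22%, beside 9.64% of all genes). A trended prior gave 3 (6.67%, beside 12%) and unadjusted analysis of variance 2 (4.44%, beside 14.1%).

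Over all genes, Nutlin-3 gave 1774 higher and 1636 lower, 687 and 549 by adjusted analysis of variance, and 777 to 1603 and 628 to 1388 leaving out arrays. In shp63 ON there were 3634 higher and 3036 lower, 1338 and 1665 by adjusted analysis of variance, 1910 higher at or above the median level, and 1639 to 3858 and 1815 to 3102 leaving out arrays. Against Nutlin-3 there were 5057 higher and 4424 lower, with 2136 higher at or above the median level, 3019 higher by adjusted analysis of variance, and 3844 to 4789 and 3512 to 4129 leaving out arrays. Pathway genes called with Nutlin-3 were 12, then 2 and 21 by adjusted and unadjusted analysis of variance and 2 to 11 leaving out arrays; in shp63 ON they were 25, then 14 by adjusted analysis of variance and 8 to 26 leaving out arrays, and against Nutlin-3 37, with 25 to 35.

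The change of PSMB9 minus PSMB6 in shp63 ON was 0.46 after quantile normalization and 0.35 to 0.47 leaving out arrays, and that of PSMB10 minus PSMB7 was 0.29 after cyclic loess and 0.35 to 0.53. For PSMB8 minus PSMB5 it was 0.39 after cyclic loess and 0.35 to 0.71 leaving out arrays. With Nutlin-3 these 3 changes were -0.144 to -0.0234, -0.19 to -0.0094 and -0.0005 to 0.0141 leaving out arrays; PSMB10 minus PSMB7 turned sign to 0.0107 after quantile normalization, and PSMB8 minus PSMB5 was 0.0909 after it and 0.0732 after cyclic loess. The second probe set of PSMC6 reversed its Nutlin-3 difference, from -0.05 to 0.12. The cause of these shifts was not tested, beyond the fewer arrays or genes that leaving out arrays and filtering by level leave.

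Same-numbered arrays shared only a number (their deviations from group means correlated at -0.06, -0.02 and 0.11). With the number as a block, members called were 1 higher and 0 lower with Nutlin-3, 2 and 16 in shp63 ON, and 3 and 24 against Nutlin-3.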
